A study of Mus musculus with 108 samples.

Results

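The regions described here are stretches of mouse liver chromatin that carried the repressed Polycomb state (state 6) in 12-month-old mice under caloric restriction, and no mark (state 8) in mice fed standard diet at both 3 and 12 months of age. They were selected on the deposited state labels of consecutive 200 bp bins: state 8 in both standard diet groups and state 6 under caloric restriction, on the 19 autosomes, with adjacent bins merged and stretches of 1 kb or more kept. This gave 6466 stretches of 182610 bins among 12313718 autosomal bins. Together they covered 36.5 Mb. The states of these bins in the 3 groups are therefore what chose the stretches, and are given as a description.

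The study profiled H3K4me3, H3K27me3, H3K27ac and H3K4me1 by ChIP-seq on formalin-fixed, paraffin-embedded livers of inbred C57BL/6 female mice, in 108 libraries. SD 3m mice were fed standard diet and were 3 months old (30 libraries, 7 of them for H3K27me3), and SD 12m mice were fed standard diet up to 12 months of age (29 libraries, 8 for H3K27me3). CR 12m mice were put on 30% fewer calories at 3 months of age and were 12 months old (29 libraries, 6 for H3K27me3). The libraries of a group were merged before states were assigned, so each group had 1 segmentation and differences could not be set against variation among mice. The 3 groups were different animals, not the same animals followed over time. The read depth behind the labels is unknown.

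H3K27me3 is written by the methyltransferase complex Polycomb repressive complex 2, which also binds the mark and can extend it to neighbouring nucleosomes. It covers silent genes of other lineages, most densely at promoters rich in CpG, and more thinly spread H3K27me3 covers long tracts of intergenic and silent genic chromatin. In the model of the study, state 6 is defined by H3K27me3 alone and state 8 by the absence of all 4 marks. State 7 combines weak H3K4me3 with minimal H3K27me3, states 1 and 2 lie at TSS and states 3 to 5 at enhancers. The labelled tissue was checked at genes of secreted plasma proteins of hepatocytes and at hepatocyte transcription factors. All 16 and all 14 TSS, respectively, were in states 1 to 5 in each of the 3 segmentations. No stretch overlapped any of these genes, against 6.16% of all protein-coding genes. At these TSS the selection itself sets this, since it requires state 8 in both standard diet groups.

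Of the 4 longest stretches, stretches 1 to 3 had fewer CpG per kb than the 8.51 of all autosomal bins, and stretch 4 had more. For each, the 200 bp bin with the most CpG is printed below, as the CpG-rich extreme of the stretch (plus strand of GRCm38.p6, the assembly that mm10 represents, with CG in capitals and all else in lower case).
Stretch 1 bin, chr5:45334801-45335000: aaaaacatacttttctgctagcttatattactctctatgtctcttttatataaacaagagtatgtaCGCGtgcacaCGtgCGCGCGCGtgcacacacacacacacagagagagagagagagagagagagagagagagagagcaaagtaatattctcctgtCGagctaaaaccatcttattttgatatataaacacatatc
Stretch 2 bin, chr3:143906601-143906800: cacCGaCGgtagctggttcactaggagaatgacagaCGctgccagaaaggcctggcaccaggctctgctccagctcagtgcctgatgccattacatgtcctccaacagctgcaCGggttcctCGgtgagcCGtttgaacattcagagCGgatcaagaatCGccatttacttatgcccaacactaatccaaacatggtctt
Stretch 3 bin, chr1:128984601-128984800: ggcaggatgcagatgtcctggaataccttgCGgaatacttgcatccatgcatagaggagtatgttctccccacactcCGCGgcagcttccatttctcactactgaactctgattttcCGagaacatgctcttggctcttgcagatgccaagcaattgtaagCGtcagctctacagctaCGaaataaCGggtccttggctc
Stretch 4 bin, chr1:33964401-33964600: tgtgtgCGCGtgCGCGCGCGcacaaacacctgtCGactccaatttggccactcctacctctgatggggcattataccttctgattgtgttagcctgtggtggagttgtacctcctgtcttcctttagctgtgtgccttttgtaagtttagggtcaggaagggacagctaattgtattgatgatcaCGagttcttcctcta
These bins held 8, 8, 7 and 8 CpG, and so none reached 10 CpG, a count reached by 1.03% of all autosomal bins. The bin of stretch 1 lay in an intron of the long non-coding RNA gene D5Ertd615e and that of stretch 4 in an intron of Dst, which encodes the cytoskeletal linker dystonin. The bins of stretches 2 and 3 lay between genes. Over its whole length, stretch 1 had 5.42 CpG per kb with 91 of 264 bins free of CpG, stretch 2 had 7.60, stretch 3 had 5.08 and stretch 4 had 11.9.

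The longest stretch, chr5:45285401-45338200, was 52.8 kb long and lay wholly within D5Ertd615e, with 370 exonic bases. It continued a state 6 run of CR 12m that was 68.0 kb long, and of the 340 bins of this run 41 were in state 6 in SD 3m and 29 in SD 12m. The second, chr3:143905201-143944400 (39.2 kb), lay in an intergenic region, 193 kb from Gm6260 and 244 kb from Lmo4, a LIM-only transcriptional cofactor. Here SD 12m was in state 6 in the bins directly on both sides, so that the stretch filled a gap between SD 12m Polycomb segments; none of the 336 bins of the CR 12m run was in state 6 in SD 3m, against 113 in SD 12m. The third, chr1:128970001-129005600 (35.6 kb), was intergenic between Cxcr4, a chemokine receptor gene 378 kb away, and Thsd7b, 268 kb away. None of the 207 bins of its CR 12m run was in state 6 in SD 3m or SD 12m, although 52.5% of the bins within 20 kb on either side were in state 6 in SD 12m.

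The fourth, chr1:33956601-33991000 (34.4 kb), lay inside Dst with 201 exonic bases and was a complete CR 12m run: both adjoining bins were in state 8 in all 3 groups. Dst itself was in state 6 at its TSS in all 3 groups. The fifth, chr6:131450801-131485200, was also 34.4 kb long, intergenic, and the end of a CR 12m run of 95.8 kb in which 271 of 479 bins were already in state 6 in SD 3m. The next in length was chr5:15611001-15644400 (33.4 kb), which held the whole gene Speer4d, a member of a multicopy family expressed in testis. The remaining members of the 10 longest lay at chr4:64892201-64925400 (33.2 kb, intergenic), chr10:107650801-107683400 (32.6 kb, in Ptprq, a receptor-type phosphatase of inner ear hair cells), chr7:91587401-91618800 (31.4 kb, in an intron of Dlg2, a postsynaptic scaffold gene) and chr7:119393001-119424200 (31.2 kb, intergenic, 18.3 kb from Gp2). The Dlg2 stretch stood alone, since no bin within 20 kb on either side was in state 6 in any of the 3 groups. Of the 10, 5 overlapped a gene, and the TSS of that gene was inside the stretch for Speer4d alone.

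**Figure D1:**
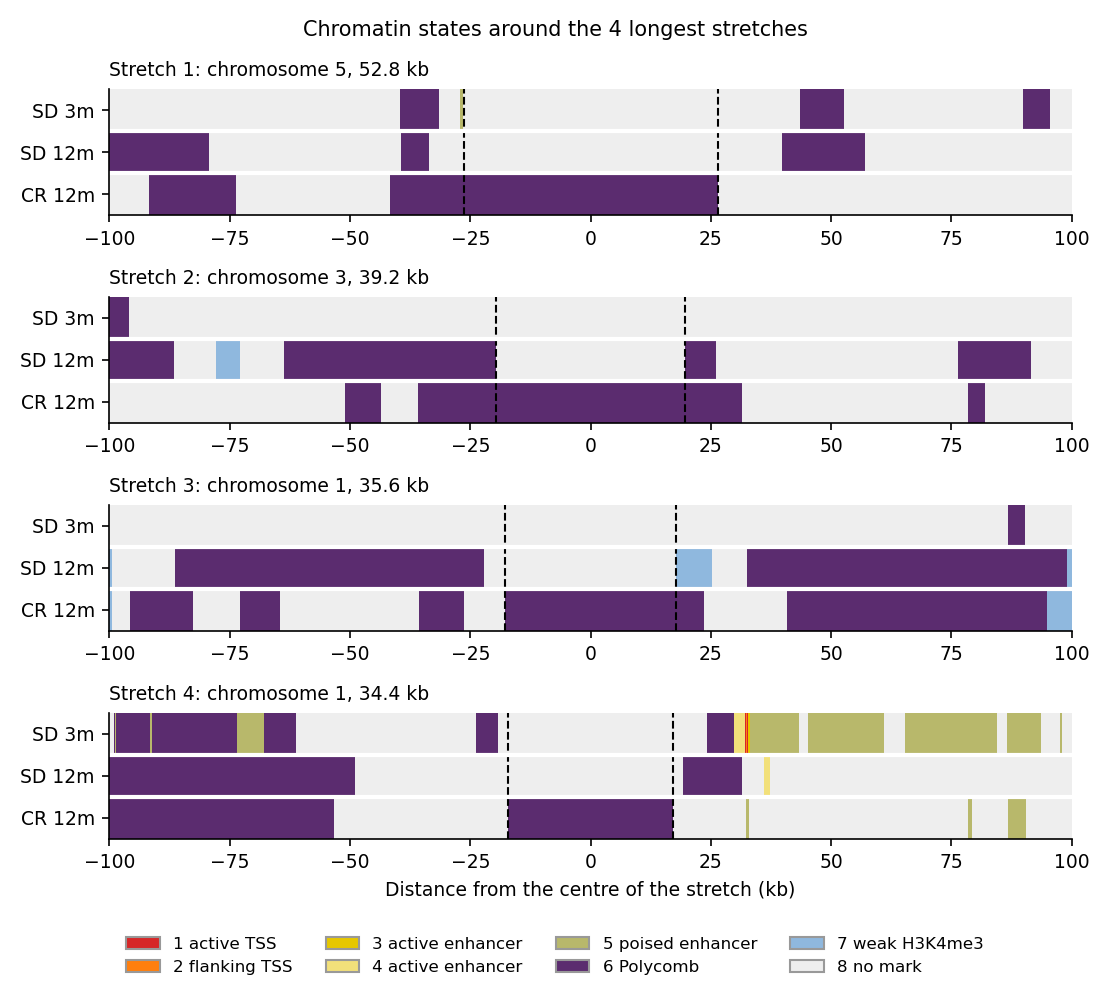
Chromatin states in SD 3m, SD 12m and CR 12m over 100 kb on each side of the centre of the 4 longest stretches; the x axis is distance in kb, each row is 1 group, colours are the 8 states and dashed lines mark the stretch. Stretch 1 continues a CR 12m run, stretch 2 joins 2 SD 12m segments, and stretch 3 starts a CR 12m run between SD 12m segments. Stretch 4 is a complete CR 12m run of 34.4 kb, with state 6 of SD 3m and SD 12m within 20 kb.

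Most stretches were far shorter. Their median length was 4.2 kb, with quartiles of 2.4 and 7.6 kb, and 10% were longer than 11.8 kb. There were 974 stretches of 10 kb or more (15.1%), which held 38.5% of the covered bases, and 106 of 20 kb or more. The stretches that were in state 6 only in SD 12m (8, 6 and 8 in SD 3m, SD 12m and CR 12m) numbered 12288 with a median of 6.2 kb and covered 104.7 Mb, and those in state 6 in both 12-month groups (8, 6, 6) numbered 7867 with a median of 6.8 kb and covered 77.3 Mb. The CR 12m stretches were thus the fewest and shortest of the 3 sets, and had a lower median length than either other set on 19 of 19 autosomes. At the length threshold, 261 stretches measured exactly 1 kb and were kept, and 287 measured 0.8 kb and were left out. The 1222 stretches below 1 kb held 3006 bins.

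**Figure D2:**
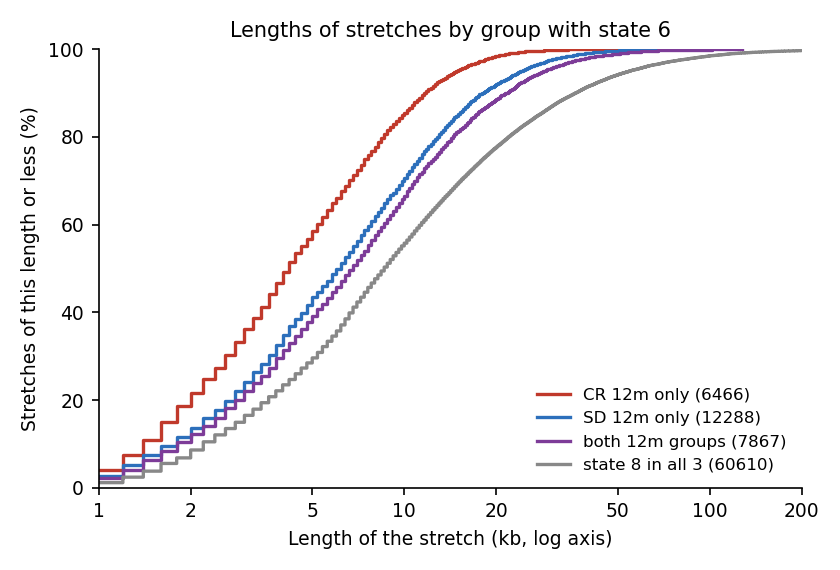
Share of stretches (%) at or below a given length (kb, log axis), by the 12-month groups in state 6, with the number of stretches of each set in the legend. The curve for CR 12m only lies to the left of the other 3, with a median of 4.2 kb against 6.2 kb for SD 12m only and 6.8 kb for both groups.

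Of the 5695598 autosomal bins in state 8 in both standard diet groups, 3.26% were in state 6 in CR 12m, which is the share the selection itself sets. By chromosome, the stretches took between 0.488% of such bins on chromosome 19 and 5.82% on chromosome 2, with a median of 3.20%. Chromosome 2 held 667 stretches over 4.04 Mb, chromosome 1 held 623 over 3.55 Mb, and chromosome 19 held 34 over 0.148 Mb. Chromosomes 12 to 19 were all below the median. The split between the diets also differed: of the bases in state 6 in only 1 of the 12-month groups, the CR 12m stretches made up 25.9% over all autosomes, 38.1% on chromosome 2 and 4.34% on chromosome 19. Whether the depth of the merged libraries has a part in this was not tested.

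**Figure D3:**
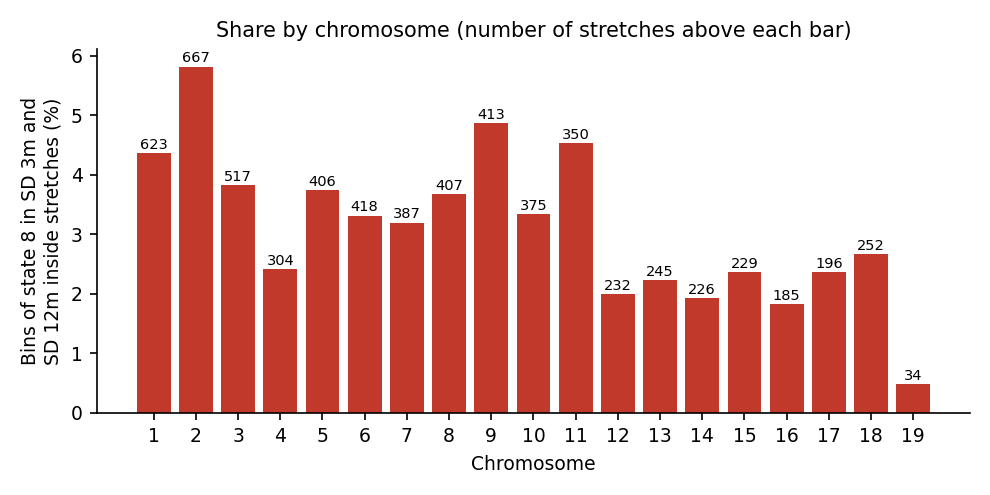
Share (%) of the bins in state 8 in both SD 3m and SD 12m that lay inside stretches, for each autosome, with the number of stretches above each bar. Chromosome 2 is highest at 5.82% and chromosome 19 lowest at 0.488%.

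The next question was whether the stretches lay beside Polycomb chromatin of the other groups or apart from it. The selection fixes that an adjoining bin is not itself in states 8, 8 and 6, so that where it is in state 6 in CR 12m it carries a mark in a standard diet group, and the shares that include the adjoining bin are partly set by this. The model also smooths labels along the genome, so neighbouring bins are not independent. Within 1 kb of a stretch, state 6 was present in SD 12m for 3446 of 6466 stretches (53.3%, Wilson 95% interval 52.1 to 54.5, which covers counting error only), in SD 3m for 1118 (17.3%, 16.4 to 18.2) and in either for 4096 (63.3%, 62.2 to 64.5). State 6 was absent within 1 kb in all 3 groups for 1532 stretches (23.7%). Of the SD 12m only stretches, 48.3% (47.4 to 49.2) had CR 12m state 6 within 1 kb and 17.4% had SD 3m state 6. State 6 of the other 12-month group covered 12.4% of all autosomal bins for the CR 12m stretches, where that group is SD 12m, and 9.42% for the SD 12m only stretches, where it is CR 12m, so the shares of 53.3% and 48.3% stand against unequal backgrounds and are given side by side.

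The bins that directly adjoined the stretches were counted by their states in the 3 groups. Of 12932 adjoining bins, 6644 (51.4%) were in state 8 in all 3 groups, so that the stretch ended where the CR 12m run ended, in chromatin without marks. A further 3560 (27.5%) were in state 6 in both SD 12m and CR 12m with SD 3m in state 8, 985 (7.62%) were in state 6 in SD 3m and CR 12m with SD 12m in state 8, and 35 were in state 6 in all 3. In 789 (6.10%) SD 12m was in state 7 (states 8, 7 and 6 in the order SD 3m, SD 12m, CR 12m). In 372 (2.88%) SD 3m was in state 5, the poised enhancer state (states 5, 8 and 6 in the same order). SD 12m was in state 6 on both sides of 388 stretches (6.00%), which had a median length of 8.2 kb, on 1 side of 2846 (44.0%) and on neither side of 3232.

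Each stretch was also assigned to the unbroken CR 12m state 6 run that held it. The 6466 stretches lay in 5546 of the 12920 autosomal CR 12m runs, and made up 15.7% of the 232 Mb in state 6 in that group. For 1688 stretches (26.1%) the run held state 6 bins of both SD 3m and SD 12m, for 2235 (34.6%) of SD 12m and not SD 3m, for 284 (4.39%) of SD 3m and not SD 12m, and for 2259 (34.9%, 33.8 to 36.1) of neither. The runs in the first class were long, with a median of 34.4 kb, of which a median stretch was 3.8 kb, whereas the runs with no state 6 in either standard diet group had a median of 5.8 kb and their stretches of 4.4 kb. In 1643 cases the stretch was the entire CR 12m run. The same count for the SD 12m only stretches, over SD 12m runs, gave 41.2% (40.4 to 42.1) in runs with no state 6 in SD 3m or CR 12m, and 4488 stretches that were the entire run. The share in runs without older or shared state 6 ranged from 25.9% on chromosome 2 to 50% on chromosome 19 for the CR 12m stretches.

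Over longer distances the stretches lay in neighbourhoods with much state 6 at 12 months under either diet. At 20 kb from the edge, 33.0% of bins were in state 6 in SD 12m, against 12.4% of all autosomal bins, and 26.3% in CR 12m, against 9.42%. In SD 3m the share at 20 kb was 13.5%, against 8.26% of all autosomal bins. Such neighbourhoods were not particular to these stretches. At 20 kb from SD 12m only stretches, state 6 covered 34.7% of bins in SD 12m and 23.4% in CR 12m. For stretches in state 6 in both 12-month groups, the shares were 48.1% and 36.6%. In the bin adjoining the CR 12m stretches, the share was higher than at 20 kb in CR 12m, at 47.2%. It was lower in SD 12m, at 28.0%, and SD 3m, at 8.06%. In CR 12m, states 1 to 5 together were scarce, at 0.588% of adjoining bins and 4.20% at 20 kb, against 24.1% of all autosomal bins. They were scarcer still in CR 12m beside SD 12m only stretches (0.354% and 2.29%) and stretches of both 12-month groups (0.203% and 2.76%). State 7 in SD 12m made up 6.33% of the bins adjoining the CR 12m stretches, below its share of 11.9% of all autosomal bins. The nearest stretch in state 6 in both 12-month groups touched 2937 of the stretches (45.4%) and lay at a median of 7.0 kb, while the nearest SD 12m only stretch lay at a median of 21.2 kb and touched 18. The definitions of the sets partly fix this contrast. Contact with a stretch of both groups needs a change of the SD 12m label alone. Contact with an SD 12m only stretch needs both 12-month labels to change at the same bin. The median of 7.0 kb includes the contacts.

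**Figure D4:**
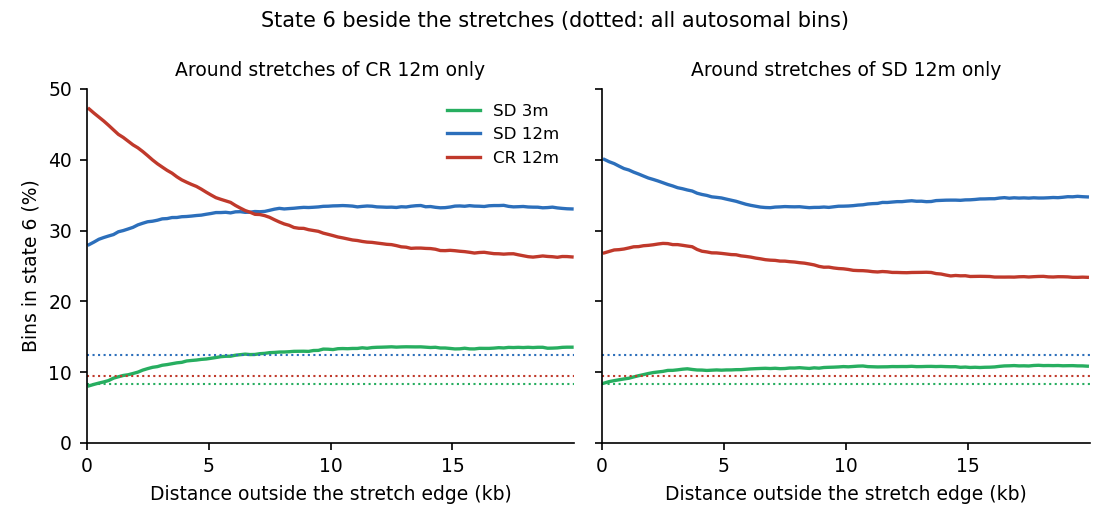
Share of bins (%) in state 6 by distance (kb) outside the edges of the stretches, both sides pooled, for the CR 12m only stretches (left) and the SD 12m only stretches (right); lines are the 3 groups and dotted lines their shares of all autosomal bins. Around the CR 12m stretches the SD 12m line lies between 28.0%, at the edge, and 33.6%, above its genome share of 12.4%.

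The base composition of the stretches was computed from the reference and was not part of the selection. The stretches had 7.90 CpG per kb and a GC content of 42.3%, against 8.51 CpG per kb and 41.9% over all autosomal bins. Stretches in state 6 in both 12-month groups had more CpG, 8.86 per kb, and the CR 12m stretches were below them on 18 of 19 autosomes, with chromosome 19 the exception. SD 12m only stretches had 7.59 per kb, and the CR 12m stretches were above these on 14 of 19 autosomes. Chromatin in state 8 in all 3 groups had 7.55 per kb, and the CR 12m stretches were above it on 12 and below it on 7. Bins with 10 CpG or more made up 0.426% of the bins in the CR 12m stretches (0.397 to 0.456), 0.446% of those in the SD 12m only stretches (0.429 to 0.465, which overlaps), 0.787% of those in state 6 in both 12-month groups, 0.717% of those in state 8 in all 3 groups and 1.03% of all autosomal bins.

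Repeats took 28.1% of the bases of the CR 12m stretches, 23.9% of those in state 6 in both 12-month groups, 26.3% of SD 12m only stretches and 39.4% of chromatin in state 8 in all 3 groups. The CR 12m stretches had more repeats than the both-group stretches on 19 of 19 autosomes and fewer than the state 8 stretches on 19 of 19. Reads of mapping quality below 1 were removed by the authors, and the effect of this on bins with repeats was not tested. Among the stretches, CpG density went with the surroundings: it was 9.65 per kb where the CR 12m run held state 6 of both standard diet groups, 9.96 where it held state 6 of SD 3m alone, 7.32 where it held state 6 of SD 12m alone, and 7.04 where it held neither, and the first was above the last on 19 of 19 autosomes. The SD 12m only stretches had the same order, with 8.96 where the SD 12m run held state 6 of SD 3m and CR 12m, 9.20 with SD 3m alone, 7.23 with CR 12m alone and 6.97 with neither.

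**Figure D5:**
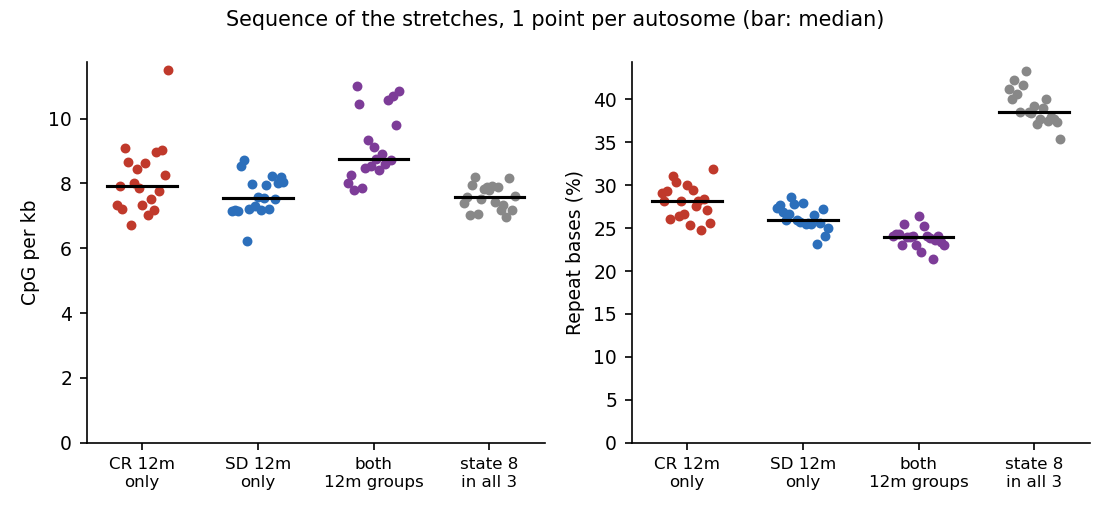
CpG per kb (left) and share of repeat bases (%, right) of the 4 sets of stretches; each point is 1 autosome and each bar the median over the 19. In repeats the CR 12m only points lie below those in state 8 in all 3 groups and above those of both 12m groups on every autosome.

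With respect to genes, 37.6% of the bases of the stretches lay in gene bodies, against 41.5% of all autosomal bases, 38.6% for stretches in state 6 in both 12-month groups and 35.4% for SD 12m only stretches. Exons took 1.73% and the 2 kb on either side of a TSS 2.08%, against 2.74% and 3.77% of all autosomal bases. Of the stretches, 3957 (61.2%) lay wholly outside genes, 2177 (33.7%) wholly inside and 332 crossed a gene boundary. The median distance to the nearest TSS was 65.4 kb, 2478 stretches (38.3%) were over 100 kb from any TSS, and 191 (2.95%) held a TSS. TSS density was 5.67 per Mb, against 9.55 in stretches in state 6 in both 12-month groups, 6.44 in SD 12m only stretches, 3.92 in state 8 chromatin and 10.1 over the autosomes.

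Of 24963 autosomal genes, 207 (0.829%) had their TSS in a stretch: 156 of the 20021 protein-coding genes (0.779%), 42 long non-coding RNA genes, 7 miRNA genes and 2 others. Counted among the 3222 protein-coding genes with a TSS in state 8 in both SD 3m and SD 12m, the share was 4.84%. For comparison, of the 5096 protein-coding genes with a TSS in state 8 in SD 3m, 158 (3.10%) carried state 6 in CR 12m with state 8 in SD 12m, 497 (9.75%) the reverse, and 607 (11.9%) had state 6 in both. The promoters of the 156 genes, taken from 250 bases before to 50 bases after the TSS, held a median of 4 CpG, and 14.7% of them held 15 or more. The median was 8 CpG where the TSS was in state 6 in both 12-month groups, 2 where it was in state 8 in all 3 groups, and 14 over all protein-coding genes. Where the TSS was in state 6 in SD 12m only, the median was 5 CpG and 24.7% of promoters held 15 or more.

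The 3 promoters in the longest stretches are printed from the RefSeq promoter table for GRCm38.p6, in the direction of transcription with CG in capitals, to show the CpG-poor start sites in question. They are Speer4d at chr5:15618849-15619148 (plus strand), Gm17019 at chr5:15032958-15033257 (minus strand) and Ocm, which encodes the calcium-binding protein oncomodulin, at chr5:144050560-144050859 (minus strand).
Speer4d promoter: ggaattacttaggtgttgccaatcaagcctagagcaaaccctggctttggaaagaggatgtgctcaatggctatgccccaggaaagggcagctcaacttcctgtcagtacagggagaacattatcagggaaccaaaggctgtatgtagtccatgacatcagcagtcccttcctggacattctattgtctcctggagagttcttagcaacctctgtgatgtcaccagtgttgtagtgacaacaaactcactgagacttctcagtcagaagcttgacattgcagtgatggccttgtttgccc
Gm17019 promoter: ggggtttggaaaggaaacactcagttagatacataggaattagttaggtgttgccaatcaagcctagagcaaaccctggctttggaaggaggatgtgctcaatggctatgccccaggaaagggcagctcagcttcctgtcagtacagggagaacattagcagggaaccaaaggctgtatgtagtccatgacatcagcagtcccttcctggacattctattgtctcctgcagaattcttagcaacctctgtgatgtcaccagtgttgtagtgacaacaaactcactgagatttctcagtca
Ocm promoter: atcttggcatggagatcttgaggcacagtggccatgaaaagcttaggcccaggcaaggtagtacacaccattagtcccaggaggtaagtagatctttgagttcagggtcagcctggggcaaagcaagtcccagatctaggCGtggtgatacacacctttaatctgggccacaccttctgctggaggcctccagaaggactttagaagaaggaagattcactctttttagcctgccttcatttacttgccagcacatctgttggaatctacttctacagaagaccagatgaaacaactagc
They held 0, 0 and 1 CpG. The stretches around these 3 start sites were 33.4, 30.0 and 25.6 kb long. The promoters of Speer4d and Gm17019 were identical at 258 of 265 bases of their best ungapped match (97.4%), and those of Gm21149 and Gm21190, whose stretches were 24.8 kb long each, were identical to that of Speer4d at 97.7% and 98.1%. Short reads may be hard to place between near-identical copies, so the state of each copy is uncertain. How reads were placed, and the identity beyond these promoter bases, was not examined. All 4 gene bodies lay wholly inside a stretch, so the selection itself sets them to state 6 in CR 12m and to none in SD 3m or SD 12m.

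The other genes with their TSS in the longest stretches were Gm14461 (21.6 kb), the olfactory receptor gene Olfr995 (20.4 kb), Gpa33, an antigen of intestinal epithelium (19.4 kb), and the neighbouring lipocalin genes Lcn11 and Lcn3, which share 1 stretch of 18 kb. The bodies of Lcn11 and Lcn3 lay wholly inside that stretch, so the selection sets their states. The bodies of Ocm and Gpa33 extended beyond the stretch. State 6 covered 62.6% (SD 3m), 45.8% (SD 12m) and 100% (CR 12m) of the Ocm body, and for Gpa33 the shares were 49.5%, 45.6% and 100%. In both, the CR 12m stretch lay at the TSS end of a body that carried state 6 in all 3 groups. Of the 156 genes, 74 had no state 6 anywhere in the body in SD 3m or SD 12m, 43 had it in SD 12m alone, 29 in both and 10 in SD 3m alone. For the 34 protein-coding genes wholly inside a stretch, the selection sets the absence in SD 3m and SD 12m.

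Bodies of 1234 protein-coding genes (6.16%) were touched by a stretch. These are long genes, with a median body of 90.5 kb against 15.6 kb for those not touched, and so the bases are given too: 1.36% of all protein-coding body bases lay in stretches. The 10 genes with the most bases in stretches were Macrod2, an ADP-ribose hydrolase gene, Dlg2, Cdh13, which encodes T-cadherin, Ptprt, a receptor-type phosphatase gene, the teneurin genes Tenm4 and Tenm2, Rgs7, a regulator of G protein signalling, the semaphorin gene Sema6d, the neurotrimin gene Ntm and Hs6st3, a heparan sulfate sulfotransferase gene. Macrod2 held 22 stretches with 180 kb of its 1995 kb body, Dlg2 held 18 with 122 kb, and Cdh13 held 15 with 117 kb.

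In these genes the stretches were a part of wider differences in state 6 across the body. State 6 covered 5.36% (SD 3m), 9.55% (SD 12m) and 18.02% (CR 12m) of the Macrod2 body. In Rgs7 the shares were 0% (SD 3m), 18.1% (SD 12m) and 28.8% (CR 12m). In Ntm, however, the share was 10.7% (SD 3m), 61.0% (SD 12m) and 37.0% (CR 12m), and in Tenm2 it was 7.89%, 64.8% and 47.8% in the same order. Of the 10 genes, 3 (Macrod2, Rgs7 and Hs6st3) had more state 6 over the whole body in CR 12m than in SD 12m and 7 had less. Over all 1234 genes, 728 had more in CR 12m and 503 had less, although each was included for holding CR 12m state 6 where both standard diet groups had none.

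Gene families were described by the share of their body bins in state 8 in both standard diet groups that lay in stretches, which was 3.5% over all protein-coding genes, of which 6.16% were touched by a stretch. The families named first have long bodies, with medians of 40.7 kb for ion channel, 110 kb for collagen, 32.8 kb for neurotransmitter receptor and 460 kb for adhesion and guidance genes, and long bodies are touched more often. Among ion channel genes the share was 7.38%, and 42 of 149 bodies were touched, such as Scn1a, a neuronal sodium channel gene, with 43.2 kb in stretches and state 6 over 10.1% (SD 3m), 74.6% (SD 12m) and 90.3% (CR 12m) of its body. Kcnq5, Cacna1c and Kcnh1 held 52.6, 44.2 and 41.0 kb. Among collagen genes the share was 7.69%, with 16 of 42 bodies touched; Col24a1, Col26a1, Col19a1 and Col11a1 held between 20.6 and 24.6 kb. Neurotransmitter receptor genes had 5.44% (27 of 89 touched, led by Grin2b with 47.6 kb and Gabrb1 with 46.0 kb), and genes of neuronal adhesion and axon guidance 5.13% (54 of 81 touched). Like Scn1a, the genes Kcnq5, Kcnh1, Col26a1, Col11a1 and Gabrb1 had more state 6 over the body in CR 12m than in SD 12m. Cacna1c, Col24a1, Col19a1 and Grin2b had less. So had 2 further neurotransmitter receptor genes, Gria1 (71.6% in SD 12m and 35.5% in CR 12m) and Grm7 (9.39% and 5.84%). At the TSS these 4 families differed: of the TSS in state 8 in both standard diet groups, stretches held 0 of 20 for ion channel, 0 of 10 for collagen, 1 of 20 for neurotransmitter receptor and 3 of 18 for adhesion and guidance genes, against 4.84% over all protein-coding genes. Of the state 8 body bins, the Wnt, Fgf and Bmp ligands had 5.06% in stretches (8 of 59 touched), with 16.8 kb in Wnt2. Solute carriers had 4.85% of these bins (40 of 374 touched), with 48.4 kb in Slc44a5. Keratin genes had 17.0% (4 of 109 touched) but only 8.96 kb in stretches in all, of which Krt7 held 4.40 kb and Krt19 3.59 kb. Of the TSS in state 8 in both standard diet groups, stretches held 2 of 5 for the ligands. They held 5 of 42 for solute carriers and 2 of 33 for keratins, all above the 4.84%.

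Counted among TSS and body bins in state 8 in both standard diet groups, the shares of chemosensory receptor genes were below those of all protein-coding genes. Counted over all genes, the shares with a TSS in a stretch were above. They were 1.54% for olfactory and 1.15% for vomeronasal receptor genes, against 0.779% of all protein-coding genes. Of 1101 olfactory receptor genes, 17 had their TSS in a stretch, which is 3.04% of the 560 with a TSS in state 8 in both standard diet groups, against 4.84% over all protein-coding genes; 2.83% of their state 8 body bins lay in stretches. Of 349 vomeronasal receptor genes, 4 had their TSS in a stretch (1.62% of 247) and 1.30% of the body bins. The whole gene lay in a stretch for 12 olfactory receptor genes, Olfr584 among them, and for 1 vomeronasal receptor gene. Among all 20021 protein-coding genes it did so for 34. Olfactory receptor genes are short, with a median body of 0.948 kb. Zinc finger genes had 2.17% of their state 8 body bins in stretches, against 3.5% over all protein-coding genes, but 2 of their 40 state 8 TSS (5%, Zfp641 and Zfp819). Cytochrome P450 genes likewise had 0.827% of the body bins and 1 of 16 such TSS (6.25%), that of Cyp2j12. These TSS shares were not below the 4.84% of all protein-coding genes.

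Classical Polycomb targets carried state 6 at most of their TSS already at 3 months. None of 39 Hox genes overlapped a stretch, against 6.16% of all protein-coding genes. Their bodies are short, with a median of 3.32 kb. None of their TSS was in state 8 in both standard diet groups, so none of these TSS could be selected. State 6 was at 30 of the Hox TSS at 3 months already, at 33 at 12 months on standard diet and at 31 under caloric restriction. Of 110 developmental transcription factor genes, none had its TSS in a stretch, and 74 TSS were in state 6 already at 3 months, 90 at 12 months on standard diet and 84 under caloric restriction, so that only 1 TSS was in state 8 in both standard diet groups. Stretches touched 5 of these genes (4.55%, against 6.16% of all protein-coding genes) and took 2.06% of their state 8 body bins, against 3.5%, with 10.6 kb in Pax7, a muscle lineage factor, and 9.42 kb in Tbx5, a heart and limb factor; state 6 covered 64.4% (SD 3m), 69.9% (SD 12m) and 87.4% (CR 12m) of Pax7. No stretch overlapped any of 36 genes of fasting response and lipid metabolism or any of 28 genes of Polycomb complexes and H3K27 demethylases, but only 1 TSS of the former and none of the latter was in state 8 in both standard diet groups, so that these lists could hardly be selected.

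Of the marker genes of other liver cells, 1 of 7 Kupffer cell genes (Timd4, a receptor of resident macrophages) had the TSS in a stretch. It was the only 1 of these TSS in state 8 in both standard diet groups, and over all protein-coding genes stretches held 4.84% of such TSS. State 6 covered 0% (SD 3m), 43.8% (SD 12m) and 26.0% (CR 12m) of the Timd4 body. Stretches also touched 2 of 8 cholangiocyte genes, Krt7 (4.40 kb) and Krt19 (3.59 kb). They touched 1 of 8 stellate cell genes, Rgs5 (3.6 kb), and 6.16% of all protein-coding genes. The TSS of Krt7 and Krt19 were not in a stretch and were in state 4, an enhancer state, in CR 12m. No stretch overlapped any of 8 endothelial genes. In bulk liver, a change in the number of cells of a type and a change in mark per cell cannot be told apart. The TSS of these Kupffer genes carried state 6 for 1 of 7 at 3 months and for 4 in either 12-month group. Their part in the stretches was not tested.

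Stretches were spread over most of the genome but unevenly. Of 2473 windows of 1 Mb, 1658 (67.04%) held part of a stretch, with a median of 15.4 kb in those that did, and 325 windows (13.1%) held 50% of all covered bases. The densest window was chr5:15000001-16000000, with 168 kb in 12 stretches, where state 6 covered 1.26% (SD 3m), 13.6% (SD 12m) and 28.5% (CR 12m) of bins. Its protein-coding genes in stretches were Speer4d, Gm17019, Gm21149 and Gm21190. The window chr3:143000001-144000000 held 145 kb in 17 stretches and no protein-coding gene overlapped them, and here state 6 covered 3.86% (SD 3m), 44.0% (SD 12m) and 42.4% (CR 12m). The other 3 were chr1:175000001-176000000 with 128 kb (Rgs7 and Wdr64), chr2:124000001-125000000 with 124 kb (Sema6d) and chr2:142000001-143000000 with 116 kb (Macrod2). Across these 5 windows the share of state 6 lay between 1.26% and 10.1% for SD 3m, between 13.6% and 44.0% for SD 12m and between 23.1% and 42.4% for CR 12m, and in 2 of the 5 the SD 12m share was above the CR 12m share.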

How the data were processed

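The authors aligned 50 bp reads to mm10 with BWA 0.6.2-r126, removed reads of mapping quality below 1, duplicates and other chromosomes with SAMtools 0.1.18, merged the libraries of each group and mark, binarized them with ChromHMM in 200 bp bins, trained a model of 8 states and deposited 1 state label per bin. The deposited label is a category, already smoothed along the genome, and the reads behind it are unknown. Bin counts of all chromosomes equalled the whole bins of GRCm38.p6. SD 6m was not analysed here, and 1 gene list result and 1 sequence are not reported here.

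Labels were joined by bin in pandas 2.3.3 and numpy 2.4.6 (Python 3.11.15), with scipy 1.17.1 for intervals and matplotlib 3.10.9 for plots. The stretches and gene lists were chosen with earlier results of these data known. Genes (26089 with chromosome X) are RefSeq genes, with the TSS of the longest curated transcript. Composition was taken over bins with no unassembled base, and repeats are the lower-case bases of the reference. With 1 segmentation per group there is no test. Values are counts and shares, with Wilson 95% intervals that cover counting error only, since neighbouring bins are not independent, and with values by autosome. Comparisons between sets share the same segmentations.

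Genes were named by rule: those overlapping the 10 longest stretches, the 10 with the most bases in stretches, the 10 with the TSS in the longest stretches, up to 4 per gene list, and those of the 5 densest 1 Mb windows. Other genes (Gm21149 and Gm21190 as a promoter comparison) were singled out after their values were seen. The merging of bins was tested on simulated labels. Alternatives were no minimum length, a 2 kb minimum, gaps of 1 bin bridged, bins near standard diet state 6 left out, chromosome X included, and state 7 counted as unmarked.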

Additional observations from a re-analysis of the deposited data

How the results depend on the processing

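The number of stretches and the bases covered stayed within 1.5 times the reported values under all 6 alternatives, at 5257 to 7688 stretches and 31.5 to 42.0 Mb. The share of stretches with state 6 within 1 kb in SD 3m or SD 12m was 63.3%, and a 2 kb minimum length moved it outside its counting interval, to 61.6%; leaving out bins within 1 kb of such state 6 sets it to 0 by construction, so that value was not computed. The share of bases in gene bodies, 37.6%, moved to 36.6% with chromosome X and to 35.7% with state 7 also counted as unmarked. CpG per kb, 7.90, moved to 7.86 with the 2 kb minimum, 7.78 without bins within 1 kb of standard diet state 6, 7.76 with chromosome X and 7.57 with state 7 counted as unmarked. These counting intervals are narrow because bins are many. No paired analysis was possible because each group has 1 segmentation of merged libraries, and for the same reason no library could be left out. The H3K27me3 libraries merged numbered 7, 8 and 6 in SD 3m, SD 12m and CR 12m, and the read depth, which limits how many bins can be called state 6, is unknown. The cause of these shifts was not tested.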

Other observations

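Chromosome X, which the selection left out, held 401 stretches of the same kind over 1.73 Mb, with a median length of 3.4 kb and a longest of 26.2 kb. They took 2.35% of the bins in state 8 in both standard diet groups. State 6 of SD 12m lay within 1 kb of 61.1% of them and state 6 of SD 3m within 1 kb of 19.5%. They had 4.80 CpG per kb, 47.2% repeat bases and 16.8% of their bases in gene bodies, and held the TSS of 8 genes.

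Among the long non-coding RNA genes with their TSS in a stretch, Gm14133 on chromosome 2 lay in the longest, of 23.2 kb, followed by Gm36201 on chromosome 17 (19.8 kb) and 4930403D09Rik on chromosome 11 (15.4 kb). The miRNA genes with a start in the longest stretches were Mir6394 on chromosome 7 (11.8 kb), within the body of Tenm4, and Mir1971 on chromosome 14 (11.0 kb). These were chosen for stretch length after their values were seen.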
